A study of Mus musculus with 4 samples.

Results

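The genes described here are 10 genes of the unfolded protein response of the endoplasmic reticulum (ER), measured by RNA-seq in mouse morulae. They were chosen by symbol, namely Ern1, Atf6, Xbp1, Hspa5, Hsp90b1, Calr, Dnajb9, Sdf2l1, Pdia4 and Herpud1. All 10 are among the 24411 genes listed in the files, and all 10 are among the 13585 genes that passed the filter on low counts and were tested. Morulae of the outbred ICR strain came from in vitro fertilization and received, by electroporation of one-cell embryos at 3 hpi, either siRNA against Pwp1 (siPwp1, 2 libraries) or control siRNA (siControl, 2 libraries). Embryos of both groups were then cultured in KSOM medium containing bovine serum albumin until 72 hpi, and 10 morulae were pooled for each library. The sequence or number of the siRNAs is not given in the sources used here, and neither is whether the replicates came from separate cultures, so each p-value reflects only how these libraries vary, which may be technical.

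The ER folds secreted and membrane proteins. When unfolded proteins build up there, sensors in its membrane, IRE1 (encoded by Ern1), ATF6 and PERK, are known to start a program that raises the genes of ER chaperones, disulfide isomerases and of ER-associated degradation, which removes misfolded proteins to the proteasome. IRE1 acts by cutting a short intron out of Xbp1 RNA in the cytoplasm, so that the RNA encodes the active transcription factor, while ATF6 is cleaved in the Golgi and its freed part enters the nucleus. The morula is about to form the blastocyst, whose outer cells place junction and transport proteins on their surface, and these proteins pass through the ER.

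The libraries held 48765229 and 30356988 expected counts in siPwp1 replicates 1 and 2, against 28981358 and 44985949 in siControl replicates 1 and 2, over 15149 to 15976 detected genes. Pwp1 itself, the targeted gene, stood at 36.9 and 37.2 CPM (counts relative to library size, scaled by TMM) in the siPwp1 libraries, against 215 and 365 CPM in the siControl libraries. Of 9 morula markers, 7 were above 1 TPM (a level per transcript length) in every library, while Sox2 was below 1 TPM in 3 of the 4 libraries and Cdx2 in siPwp1 replicate 2. The 9 summed to 369 and 382 TPM in siPwp1 and to 537 and 424 TPM in siControl, with the highest sum in siControl replicate 1. Markers of other sources moved as well. The 7 oocyte markers summed to 8.31 and 23.3 TPM in siPwp1 and to 5.47 and 16.4 TPM in siControl, higher in replicate 2 of each group, and Mos was at 0 in both siControl libraries. The 6 blood markers summed to 12.99 and 8.43 TPM in siPwp1 and to 2.29 and 3.42 TPM in siControl, nearly all of it Cd52 and Coro1a, with both globin genes of the list at 0 throughout. The 8 cumulus cell markers summed to at most 0.15 TPM, with 3 at 0 in every library, and the 5 sperm markers to 3.14 and 0.91 TPM in siPwp1 and 2.97 and 0 TPM in siControl. In pooled embryos, fewer cells of a type and less RNA per cell cannot be told apart.

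The 10 genes differed widely in level per length, and their order was much alike in both groups. Dnajb9 was the most abundant, at 177 and 466 TPM in siPwp1 and 99.6 and 275 TPM in siControl, which ranked 555th in siPwp1 and 888th in siControl among all genes listed by mean TPM. Hspa5, Calr and Hsp90b1, the abundant chaperones of the ER, followed, with means of 82.4 ± 26.5, 55.2 ± 21.2 and 46.5 ± 13.5 TPM in siPwp1 and of 101 ± 27.4, 77.6 ± 44.3 and 70.2 ± 36.5 TPM in siControl (SD, n = 2). These 3 were not told apart as neighbours in the order, since their libraries overlapped in both groups, and in siControl the libraries of Dnajb9 and Hspa5 overlapped too. Pdia4, Sdf2l1 and Xbp1 came next and were apart from each other and from their neighbours in both groups. Xbp1 stood below Sdf2l1 in siPwp1, at means of 10.8 ± 0.262 and 15.5 ± 0.0636 TPM, but above it in siControl, at means of 17.8 ± 0.651 and 14.2 ± 0.0283 TPM (SD, n = 2). At the low end, Atf6 averaged 2.89 ± 0.735 TPM in siPwp1 and 2.56 ± 0.856 TPM in siControl, and Herpud1 averaged 1.41 ± 0.481 TPM in siPwp1 and 2.99 ± 0.219 TPM in siControl (SD, n = 2). In siPwp1 the libraries of Atf6 lay above those of Herpud1, while in siControl they overlapped. Ern1 had the lowest mean, at 0.30 and 1.13 TPM in siPwp1 and 0.14 and 0.48 TPM in siControl. In siPwp1 its libraries overlapped those of Herpud1, while in siControl they lay below those of all the others.

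**Figure D1:**
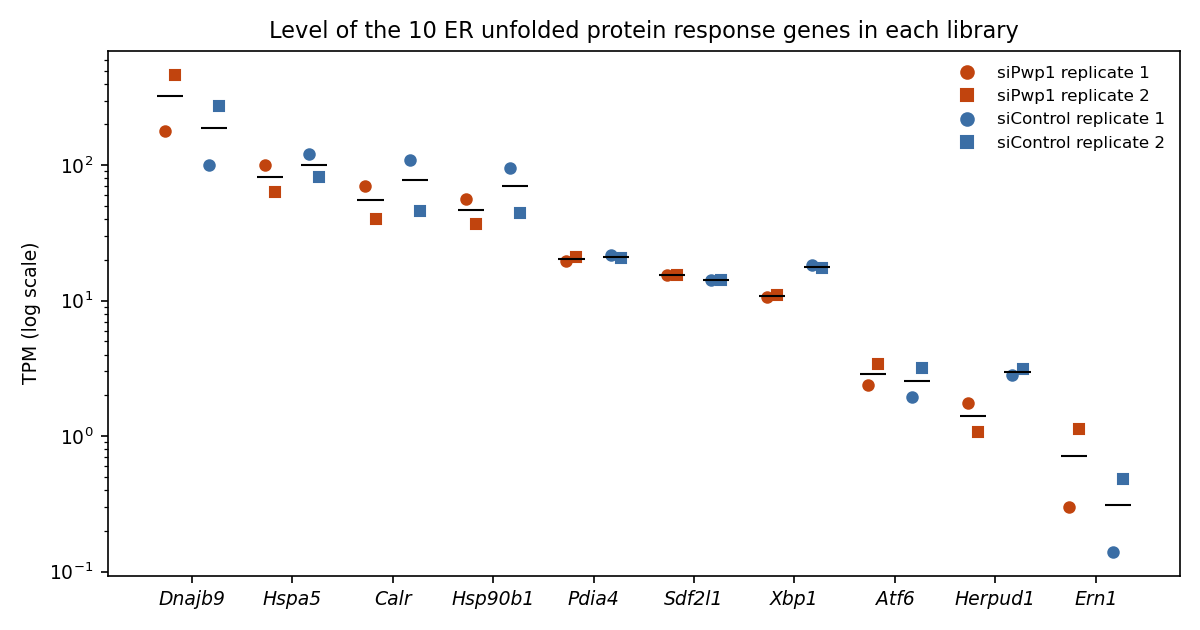
TPM of each of the 10 genes in each library, on a log scale; circles are replicate 1, squares are replicate 2, and black bars are group means. The siPwp1 and siControl points do not overlap for Xbp1, Herpud1 and Sdf2l1, and for Dnajb9 and Ern1 replicate 2 stands above replicate 1 in both groups.

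The question put to these genes was whether their RNA differs between morulae in which Pwp1 was targeted and their controls. Xbp1 and Herpud1 had siPwp1 libraries that both lay below both siControl libraries, and Sdf2l1 had siPwp1 libraries that both lay slightly above. The other 7 genes overlapped between the groups. Over all genes tested, 14.1% had siPwp1 libraries below and 14.7% had them above, so 2 and 1 of 10 are close to the background. With edgeR's quasi-likelihood test, 0 of the 10 genes passed an adjusted p of 0.05 in either direction, as did 0% of all genes. DESeq2 also called 0 of the 10. Of the 13200 genes to which DESeq2 gave an adjusted p, it called 0.348% higher and 0.0152% lower. At an unadjusted p under 0.05 edgeR counted 0 of the 10 higher and 1, Xbp1, lower, against 1.84% and 0.824% of all genes. The median log2 fold change of the 10 was -0.19, against -0.0010 over all genes tested, and single genes ranged from -1.09 to 1.19. The adjusted p was 0.9998 for each of the 10 genes with edgeR, so no direction given below passed a test.

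The sensor genes stood at the low end of the set per length, together with Herpud1. Ern1, the gene of IRE1 on chromosome 11 at 106394650 to 106487852 of the minus strand (GRCm38, the assembly that mm10 names), had 56 and 120 reads in siPwp1 and 15 and 74 reads in siControl. That corresponds to 1.11 and 3.99 CPM in siPwp1, with 95% exact Poisson intervals of 0.837 to 1.44 and 3.30 to 4.77, against 0.521 and 1.68 CPM in siControl, with intervals of 0.291 to 0.859 and 1.32 to 2.11. These intervals cover counting error only, and that of siPwp1 replicate 1 overlapped those of both siControl libraries, while siPwp1 replicate 2 lay above all others. Its log2 fold change was 1.19 (SE 0.94), and it was 0.0063 without siPwp1 replicate 2 and 1.84 without siPwp1 replicate 1. Leaving out siControl replicate 1 gave 0.59, and leaving out siControl replicate 2 gave 2.27. Replicate 2 stood 3.596-fold above replicate 1 in siPwp1 and 3.23-fold above it in siControl, more than the 2.28-fold between the groups. Atf6, the gene of the sensor cleaved in the Golgi, lies on chromosome 1 at 170704674 to 170867771 and stood at 16.9 and 23.4 CPM in siPwp1 and at 14.3 and 21.5 CPM in siControl. The groups overlapped, with a log2 fold change of 0.17 (SE 0.38) that was -0.09 without siControl replicate 1 and -0.08 without siPwp1 replicate 2.

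Xbp1, the transcription factor gene that IRE1 acts on, lay below siControl in siPwp1 with little spread. It stood at 20.70 and 20.69 CPM in siPwp1, against 36.7 and 32.4 CPM in siControl. The libraries of each group lay closer together than the groups did. The log2 fold change was -0.74 (SE 0.30), or 1.67-fold lower, with an unadjusted p = 0.044 in edgeR's test over all genes. It lay between -0.83 and -0.65 with each library left out in turn. Xbp1 is a protein-coding gene of up to 5 exons on the plus strand of chromosome 11, at 5520659 to 5525893 (GRCm38).

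The files give Xbp1 with both of its RefSeq transcripts, NM_013842 and NM_001271730, which as background are the unspliced form and the form without the IRE1 intron, and report only their sum. The stretch below, from GENCODE transcript ENSMUST00000063084 on GRCm38, shows the intron that IRE1 is known to remove, in capitals, with 20 bases on each side. It was located as the stretch between a pair of CNGCAGC heptamers, each cut between its G and the C that follows, lies within exon 4 and within the coding sequence, and is 26 bases long, so its loss shifts the reading frame.
Xbp1, chr11:5524279-5524304 (plus strand, capitals): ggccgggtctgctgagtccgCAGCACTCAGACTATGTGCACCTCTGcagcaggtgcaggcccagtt

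The gene length that the authors' RSEM output gives for each library is the mean over the transcripts, weighted by their estimated share, so a shorter value means a larger share of the shorter transcript. For Xbp1 this length was 2238.46 and 2246.30 bases in siPwp1, against 2236.47 and 2241.63 bases in siControl. The groups overlapped, and replicate 2 had the longer value in both. The widest gap, 9.83 bases between siPwp1 replicate 2 and siControl replicate 1, would equal 37.8 percentage points of spliced RNA if the 2 transcripts differ by the intron alone. The gap between siPwp1 replicate 1 and siControl replicate 1 would equal 7.65 points, and that between siPwp1 replicate 2 and siControl replicate 2 would equal 18.0 points. The lengths of the 2 RefSeq transcripts were not used here, so the share itself is not given, and neither are the reads behind it.

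Among the other genes of the pathway, those whose levels most resembled Xbp1 were found by the distance between log2 CPM profiles over the 4 libraries, each centred on its mean, among 89 pathway genes tested. The 3 nearest were Syvn1 (distance 0.36), the ubiquitin ligase gene of ER-associated degradation known as HRD1, Herpud2 (0.37), a relative of Herpud1, and Erlec1 (0.41), which encodes an ER lectin. Syvn1 stood at 5.09 and 5.75 CPM in siPwp1, against 8.61 and 6.32 CPM in siControl. All 3 had siPwp1 libraries below both siControl libraries, as did 14.1% of all genes tested. They were picked for their likeness to Xbp1, which lay below siControl, so this order follows largely from the choice. It therefore adds no support to the values of Xbp1, and 4 libraries leave room for many such likenesses.

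**Figure D2:**
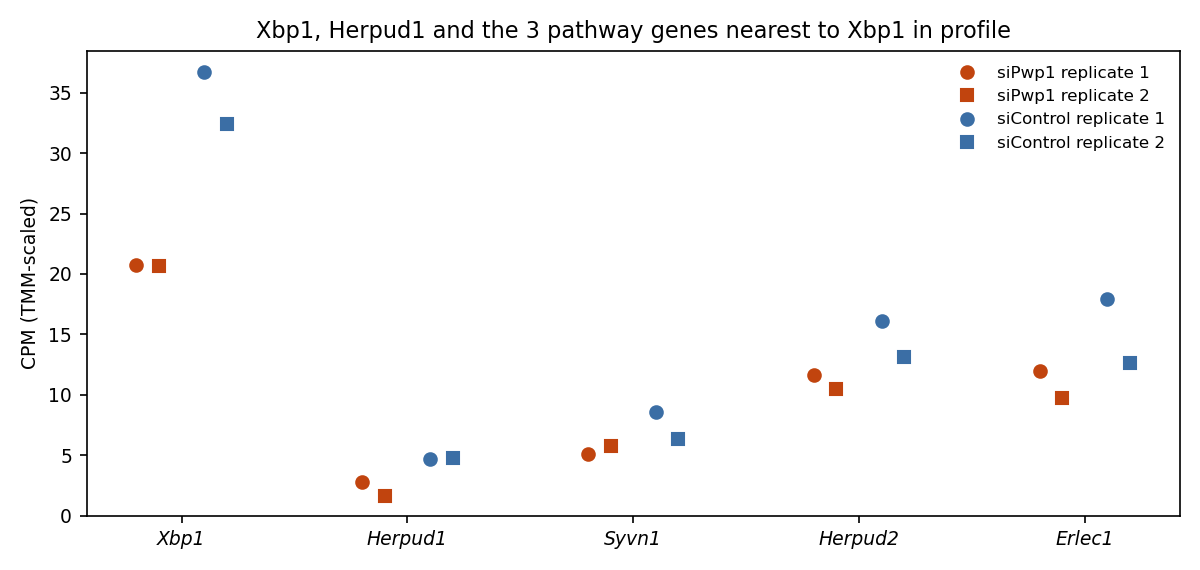
TMM-scaled CPM in each library for Xbp1, Herpud1 and the 3 pathway genes with the nearest profile to Xbp1; circles are replicate 1 and squares are replicate 2. In each of the 5 genes both siPwp1 points lie below both siControl points, which for the 3 nearest genes follows largely from how they were chosen. The widest gap in CPM is that of Xbp1, while the fold change was larger for Herpud1 (2.14-fold lower, against 1.67-fold for Xbp1).

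Several genes of the set are textbook targets of ATF6 and XBP1, which are known to bind the ER stress element (ERSE, the boxes CCAAT and CCACG with 9 bases between them) and ERSE-II (ATTGG and CCACG with 1 base between them) near the start of ER chaperone genes. Promoters from RefSeq on GRCm38.p6, 250 bases before to 50 after the annotated start, were found for 9 of the 10 genes, all but Atf6. On either strand, ERSE was found in Hspa5, Hsp90b1 and Calr, and in 0.119% of the 32851 promoters searched. ERSE-II was found in Herpud1 and in 0.0365% of all promoters, and the XBP1 element UPRE (TGACGTGG) in 0 of the 9 and in 0.676% of all. The core CCACG, which lies within ERSE and ERSE-II and also within UPRE on the other strand, was found in 8 of the 9, all but Xbp1, and in 32.8% of all promoters. The 4 promoters that hold a full element are shown because the RNA of their genes is described next. Capitals mark the fixed letters of ERSE and ERSE-II and any further CCACG, which reads CGTGG where the match is on the other strand. Among the 13046 promoters of tested genes the shares were higher, at 0.161% for ERSE, 0.069% for ERSE-II, 0.813% for UPRE and 46.0% for CCACG. A match is a description of the letters and not a measured binding site. As several of these genes are textbook targets through such elements, matches in them were likely beforehand. The shares are therefore background and not a test of enrichment.
Hspa5, chr2:34771840-34772139 (plus strand): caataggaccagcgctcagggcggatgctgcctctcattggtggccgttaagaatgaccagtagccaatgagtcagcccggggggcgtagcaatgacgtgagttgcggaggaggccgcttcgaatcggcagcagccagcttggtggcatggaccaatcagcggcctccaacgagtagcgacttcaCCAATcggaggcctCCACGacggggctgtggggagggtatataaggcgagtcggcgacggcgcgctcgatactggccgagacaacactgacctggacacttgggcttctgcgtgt
Hsp90b1, chr10:86705395-86705694 (minus strand): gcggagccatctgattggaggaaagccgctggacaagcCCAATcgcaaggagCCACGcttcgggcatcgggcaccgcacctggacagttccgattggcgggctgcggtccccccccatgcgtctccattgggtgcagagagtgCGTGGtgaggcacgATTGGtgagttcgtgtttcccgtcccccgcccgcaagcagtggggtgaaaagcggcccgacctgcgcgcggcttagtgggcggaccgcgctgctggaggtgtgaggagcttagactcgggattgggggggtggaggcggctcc
Calr, chr8:84846882-84847181 (minus strand): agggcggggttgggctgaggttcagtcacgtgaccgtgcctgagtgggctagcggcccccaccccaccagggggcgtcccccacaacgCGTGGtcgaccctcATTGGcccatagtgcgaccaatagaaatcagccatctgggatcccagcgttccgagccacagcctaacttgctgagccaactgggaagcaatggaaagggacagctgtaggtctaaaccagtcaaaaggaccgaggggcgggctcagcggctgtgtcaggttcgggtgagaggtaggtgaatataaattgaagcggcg
Herpud1, chr8:94386179-94386478 (plus strand): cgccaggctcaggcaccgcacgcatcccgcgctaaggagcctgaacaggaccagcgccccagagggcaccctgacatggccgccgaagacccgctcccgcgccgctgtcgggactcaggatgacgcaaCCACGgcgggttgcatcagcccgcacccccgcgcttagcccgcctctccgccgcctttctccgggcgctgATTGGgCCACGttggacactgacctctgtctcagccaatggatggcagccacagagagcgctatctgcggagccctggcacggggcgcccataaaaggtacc

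Counted from 0 at the start annotated by RefSeq, the ERSE of Hspa5 lay at -65 to -47. The pair in Hsp90b1 lay at -212 to -194 and -107 to -89, and the ERSE of Calr at -162 to -144. The ERSE-II of Herpud1 lay at -52 to -42. The GENCODE starts of these genes differ from the RefSeq starts. GENCODE begins Hspa5 further upstream, at 34771970, so the ERSE of Hspa5 falls inside the gene as GENCODE gives it.

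The 3 genes with ERSE in their promoter, the abundant chaperones of the set, had the same order of libraries. In GENCODE M21 they lie on chromosome 2 at 34771970 to 34777547 (Hspa5), chromosome 10 at 86690209 to 86705509 (Hsp90b1) and chromosome 8 at 84841850 to 84846934 (Calr). Hspa5, which encodes the HSP70 chaperone BiP that holds the sensors inactive, stood at 228 and 138 CPM in siPwp1, against 278 and 174 CPM in siControl. Hsp90b1, which encodes the HSP90 of the ER known as GRP94, stood at 138 and 87.8 CPM in siPwp1, against 244 and 104 CPM in siControl. Calr, which encodes the lectin chaperone calreticulin, stood at 116 and 64.1 CPM in siPwp1, against 186 and 73.3 CPM in siControl. In each, siControl replicate 1 was the highest library, followed by siPwp1 replicate 1, siControl replicate 2 and siPwp1 replicate 2, and the groups overlapped. Across all genes tested 9.70% had this order of libraries. The log2 fold changes were -0.31 (SE 0.35) for Hspa5, -0.62 (SE 0.44) for Hsp90b1 and -0.52 (SE 0.49) for Calr. Without siControl replicate 1 they turned to 0.07, 0.11 and 0.30, and without siPwp1 replicate 2 they were 0.02, -0.33 and -0.15. Without siControl replicate 2 they were -0.60, -1.11 and -1.05, with edgeR adjusted p = 0.17 for Hsp90b1 and 0.27 for Calr, and without siPwp1 replicate 1 they were -0.71, -0.99 and -1.02. The summed TPM of the 3 was 227 and 141 in siPwp1, against 325 and 172 in siControl. The sum of the morula markers was also highest in siControl replicate 1, but it was lowest in siPwp1 replicate 1, unlike the 3 chaperones. Among the single markers, Gata3, Cdx2 and Cdh1 had the chaperones' order of libraries in TPM, and the others did not. The part of these markers in the chaperone values was not tested. Hsp90b1 overlaps 1810014B01Rik on the other strand, and the strand setting of the counting is not given in the sources used here, so its level is uncertain by that gene's reads, which numbered 280 and 126 in siPwp1 and 86 and 152 in siControl as counted.

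Among the co-chaperones, Dnajb9 and Sdf2l1 behaved unlike each other. Dnajb9 encodes ERdj4, a J-domain partner of BiP, lies on chromosome 12 at 44205559 to 44210326, and stood at 281 and 709 CPM in siPwp1, against 162 and 415 CPM in siControl. Replicate 2 was 2.53-fold above replicate 1 in siPwp1 and 2.55-fold above it in siControl, and the groups overlapped. The log2 fold change between the groups was 0.78 (SE 0.55). It was -0.03 without siPwp1 replicate 2 and 1.297 without siPwp1 replicate 1, while leaving out siControl replicates 1 and 2 in turn gave 0.25 and 1.60, and the smallest edgeR adjusted p of these fits was 0.067, without siControl replicate 2. Dnajb9 took 39.0% and 70.6% of the summed TPM of the 10 genes in siPwp1, against 20.6% and 54.3% in siControl. Its TPM was 1.76 and 7.32 times that of Hspa5 in siPwp1, against 0.829 and 3.38 times in siControl. The sum of the oocyte markers was also higher in replicate 2 of each group. Zp3 moved most, at 3.43 and 16.3 TPM in siPwp1 and 3 and 10.4 TPM in siControl. Gdf9 and Mos were lower in replicate 2 of siPwp1, and Zp1 in replicate 2 of siControl. The part of these markers in the replicate difference was not tested. Ern1, Atf6 and Dnajb9 shared the order siPwp1 replicate 2, siControl replicate 2, siPwp1 replicate 1 and siControl replicate 1 from high to low, the reverse of that of the 3 chaperones, as did 9.88% of all genes tested. Both orders were noticed after the values were seen.

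Sdf2l1, which encodes a partner of the J-domain co-chaperone ERdj3 and lies on chromosome 16 at 17130138 to 17132383, was the steadiest gene of the set beside Pdia4. It stood at 12.9 and 12.3 CPM in siPwp1, against 12.2 and 11.3 CPM in siControl. The groups did not overlap, but the log2 fold change was 0.10 (SE 0.36), well within its error. Pdia4, which encodes the disulfide isomerase ERp72, lies on chromosome 6 at 47796141 to 47813430 and stood at 42.8 and 44.5 CPM in siPwp1, against 48.6 and 42.9 CPM in siControl. The groups overlapped, with a log2 fold change of -0.07 (SE 0.27) that lay between -0.16 and 0.03 with each library left out in turn.

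Herpud1 encodes a membrane protein that helps assemble the machinery of ER-associated degradation. It had 140 and 49 reads in siPwp1 and 134 and 210 reads in siControl. That corresponds to 2.77 and 1.63 CPM in siPwp1, with 95% exact Poisson intervals of 2.33 to 3.27 and 1.20 to 2.15, against 4.65 and 4.78 CPM in siControl, with intervals of 3.90 to 5.51 and 4.15 to 5.47. These intervals are of single libraries and cover counting error only. Those of the siPwp1 libraries did not overlap those of the siControl libraries. The siPwp1 libraries differed from each other more than the siControl libraries did. The log2 fold change was -1.09 (SE 0.55), or 2.14-fold lower, with an unadjusted p = 0.087 in edgeR's test over all genes. It was -0.76 without siPwp1 replicate 2 and -1.53 without siPwp1 replicate 1, and leaving out siControl replicates 1 and 2 in turn gave -1.11 and -1.07. Herpud1 lies on chromosome 8 at 94386438 to 94395377 of the plus strand (GRCm38) and overlaps Gm15890 on the other strand, so its level is uncertain by any reads from that gene.

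The difference between replicates of a group was thus set beside the difference between groups for each gene. For Ern1, Atf6, Hspa5, Hsp90b1, Calr and Dnajb9 the replicates of both groups differed by more than the fitted log2 fold change between the groups. For Xbp1 and Herpud1 they differed by less in both groups. Of the 10 genes, 3 were higher and 5 were lower in replicate 2 in both groups. The shares of all genes tested with these patterns were not computed, so the patterns do not set Xbp1 and Herpud1 apart. A difference between single libraries also varies more than one between group means.

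**Figure D3:**
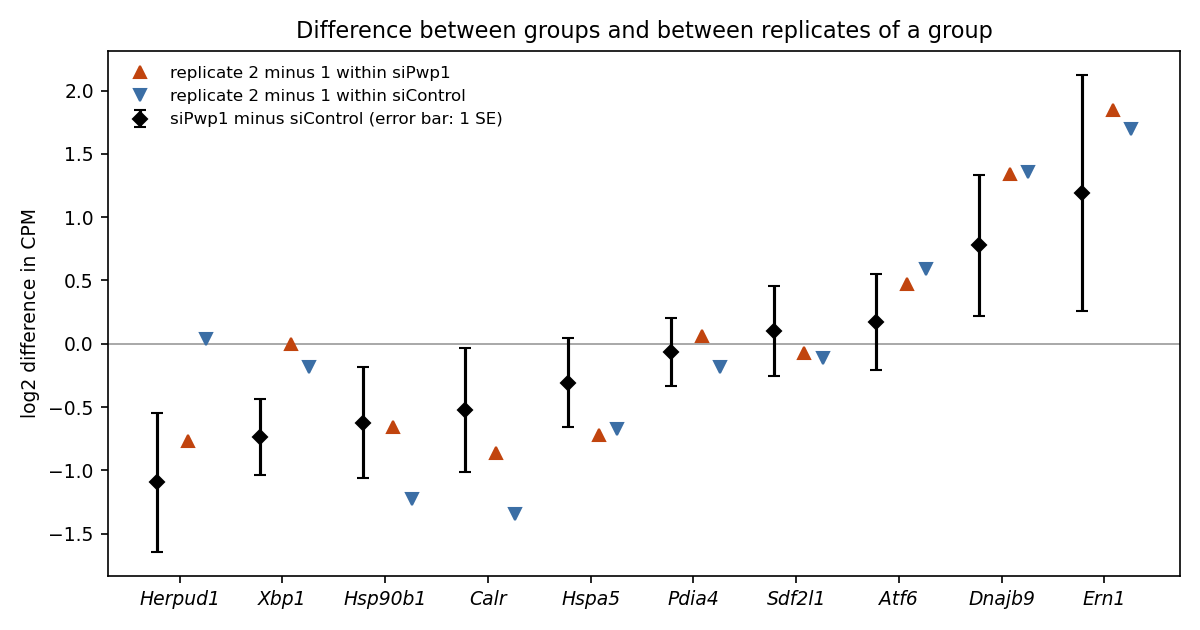
For each gene, ordered by the group difference, the log2 fold change of siPwp1 minus siControl with its SE (black diamonds) and the log2 difference of replicate 2 minus replicate 1 within siPwp1 and within siControl (triangles). For Xbp1 and Herpud1 the triangles lie nearer to 0 than the diamond, and for the 3 genes at the right all symbols lie above 0.

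The other genes of ER folding and quality control were read from 5 lists covering 90 genes, all of which were tested, 80 of them not among the 10. Of the 80, edgeR called 0 higher and 0 lower over all genes, and DESeq2 called 0. At an unadjusted p under 0.05 edgeR counted 1 higher, Ddit3, and 0 lower, against 1.84% and 0.824% of all genes. In CPM the siPwp1 libraries lay below both siControl libraries for 17 of the 80 and above both for 7. The shares of all genes tested in CPM were 14.1% and 14.7%. In TPM they lay below for 16 and above for 8, and the shares over all genes were not computed in TPM. Counts for single lists are in CPM. The median log2 fold change of the 80 was -0.09, against -0.0010 over all genes.

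Among sensors and transcription factors, 2 of the 11 other genes had siPwp1 libraries above siControl and 2 had them below. The shares of all genes tested were 14.7% above and 14.1% below. Ddit3 encodes CHOP, a transcription factor downstream of PERK that promotes cell death, and stood at 11.9 and 10.5 CPM in siPwp1, against 6.42 and 2.89 CPM in siControl. The groups did not overlap, with a log2 fold change of 1.27 (SE 0.51) and an unadjusted p = 0.041 in edgeR's test over all genes. Leaving out siControl replicate 1 gave a log2 fold change of 1.95, and leaving out the other siControl library gave 0.80. Mbtps1 and Mbtps2 encode the Golgi proteases that cleave ATF6, and their values pointed in opposite directions. Mbtps1 stood at 20.7 and 18.2 CPM in siPwp1 and 15.4 and 17.3 CPM in siControl, and Mbtps2 at 31.7 and 28.6 CPM in siPwp1 and 53.5 and 34.2 CPM in siControl. Creb3, an ER-anchored transcription factor gene, overlapped between the groups (log2 fold change 0.19, SE 0.28).

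Among the other chaperones and co-chaperones, 3 of 15 had siPwp1 libraries above siControl and 4 had them below. Of all genes tested, 14.7% lay above and 14.1% below. Hyou1, the gene of the HSP70-like exchange factor GRP170, stood at 6.29 and 3.09 CPM in siPwp1, against 10.8 and 7.64 CPM in siControl (log2 fold change -0.97, SE 0.51), and -1.57 without siPwp1 replicate 1 and -0.54 without siPwp1 replicate 2. Sil1, the gene of another exchange factor of BiP, stood at 9.80 and 6.61 CPM in siPwp1, against 5.52 and 5.51 CPM in siControl (log2 fold change 0.57, SE 0.43, and 0.26 without siPwp1 replicate 1). These exchange factors for the same chaperone thus lay on opposite sides, neither past the test. Cnpy2 stood at 14.3 and 16.2 CPM in siPwp1, against 34.6 and 16.995 CPM in siControl, where replicate 1 made most of the gap. Canx, the gene of the membrane lectin chaperone calnexin, stood at 399 and 360 CPM in siPwp1, against 508 and 415 CPM in siControl (log2 fold change -0.28, SE 0.24).

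The other genes of disulfide formation had log2 fold changes from -0.37 to 0.38. Of these 13, 1 lay below siControl in both siPwp1 libraries and 0 above, against 14.1% and 14.7% of all genes tested. That gene was Tmx3, a membrane thioredoxin gene, at 52.3 and 40.5 CPM in siPwp1, against 60.7 and 58.9 CPM in siControl. Txndc12, Txndc5 and the oxidase gene Ero1l overlapped between the groups, with log2 fold changes of -0.32, -0.27 and 0.38, the last of which was 0.0034 without siPwp1 replicate 2.

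In ER-associated degradation, 7 of the 24 other genes had both siPwp1 libraries below siControl and 0 had both above. Over all genes tested the shares were 14.1% below and 14.7% above. The median log2 fold change of the 24 was -0.14, and 0 of them had an unadjusted p under 0.05 in edgeR's test. In TPM 5 lay below and 1, Derl3, above, with no share over all genes computed on that scale. Erlec1 stood at 12.0 and 9.73 CPM in siPwp1, against 17.9 and 12.6 CPM in siControl, and Herpud2 at 11.6 and 10.5 CPM in siPwp1, against 16.1 and 13.1 CPM in siControl. The log2 fold changes were -0.49 (SE 0.38) for Erlec1 and -0.40 (SE 0.36) for Herpud2. March6, a ubiquitin ligase gene, and Derl3, of the derlin family that works in the export of misfolded proteins, overlapped between the groups in CPM. Derl3 stood at only 1.78 and 0.598 CPM in siPwp1 and 0.625 and 0.182 CPM in siControl, and at 1.68 and 0.59 TPM in siPwp1 and 0.57 and 0.18 TPM in siControl. Its log2 fold change of 1.58 was 0.58 without siPwp1 replicate 1 and 2.696 without siControl replicate 1.

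In translocation and signal peptide removal, 2 of 17 genes had siPwp1 libraries above siControl and 3 had them below. Across all genes tested 14.7% lay above and 14.1% below. Spcs3, a signal peptidase subunit gene, stood at 70.7 and 83.4 CPM in siPwp1, against 93.9 and 114 CPM in siControl. Ssr2, of the complex that assists the translocon, stood at 338 and 337 CPM in siPwp1, against 257 and 288 CPM in siControl, and Srprb, the gene of a subunit of the signal recognition particle receptor, at 142 and 134 CPM in siPwp1, against 99.1 and 121 CPM in siControl. The translocon subunit gene Sec61g overlapped between the groups in CPM (log2 fold change -0.36, SE 0.27, and -0.098 without siControl replicate 1), while in TPM it stood at 306 and 273 in siPwp1, below the 408 and 317 in siControl.

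**Figure D4:**
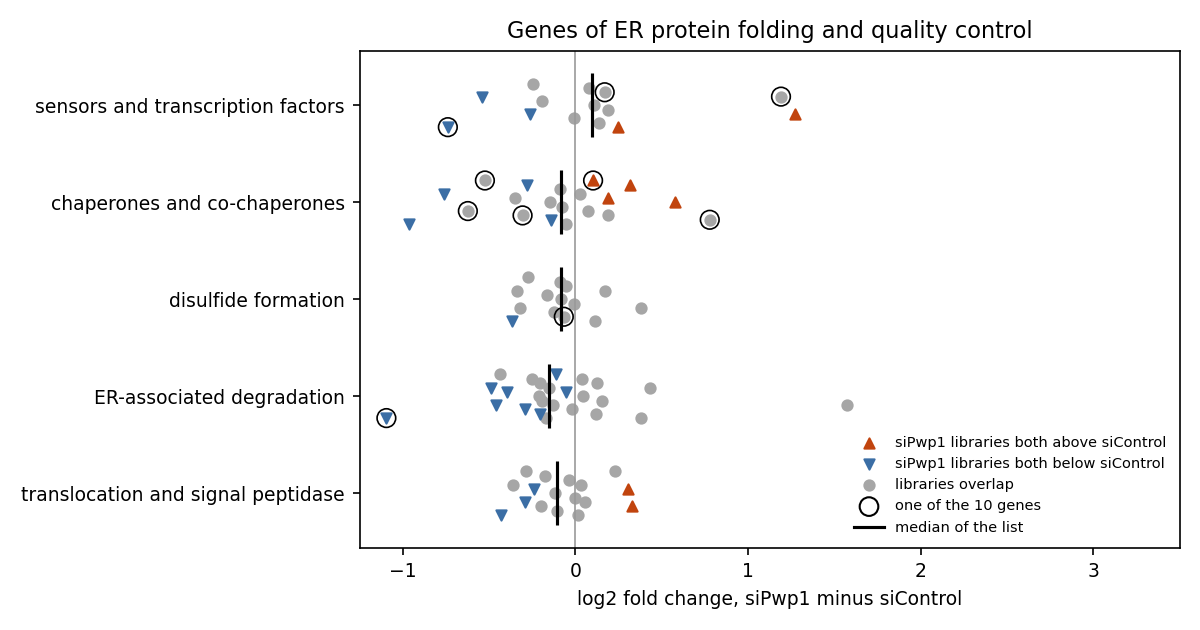
Log2 fold change of siPwp1 minus siControl for each tested gene of the 5 lists; triangles mark genes whose siPwp1 libraries both lie above or both below siControl, grey circles mark overlapping libraries, open circles mark the 10 genes, and vertical bars are list medians with the 10 included. The medians lie near 0, and in ER-associated degradation 8 genes, Herpud1 included, are marked below siControl and 0 above, by CPM. Over all genes tested 14.1% lay below and 14.7% above.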

How the data were processed

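RNA was measured in 4 libraries of pooled mouse morulae, 2 per group by the sample titles. Per the labels, polyA RNA was converted to libraries with a SMART-Seq kit. Per the submitters' processing notes, STAR 2.7.10, RSEM 1.3.3 and mm10 were used; the sources used here give no trimming, annotation release or strand setting. The deposited values are RSEM expected counts for each gene, not normalized, and TPM scaled within each library by the authors, per the file headers. The deposited gene length was used for Xbp1. For the 10 genes, 39 of 40 expected counts were whole numbers, the other one a share of reads that match several genes.

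Expected counts were rounded and tested with edgeR 4.0.16 (quasi-likelihood, group as the single term, filterByExpr with a minimum count of 10, TMM) in R 4.3.3, over 13585 genes. P-values are two-sided, adjusted over all genes by Benjamini-Hochberg at 0.05, and a p given with a fold change comes from this model unless another fit is named. A count of 3 equals 0.0594 to 0.104 CPM. The smallest p that an exact permutation test of 2 against 2 allows is 0.333. Alternatives used DESeq2 1.42.0 and limma 3.58.1, the latter on log2(TPM + 1) and log2(TPM + 0.1) for genes with a mean TPM of at least 1. Fits were tested on simulated data whose planted changes were larger than those of the 10 genes and whose replicates shared no difference. That test does not show how well changes of the size described here are found. Named were Pwp1, the 10 genes, the 4 other genes of each list with the smallest edgeR p, and the 3 nearest to Xbp1. The genes and lists were chosen with earlier results of these data known. Positions are from GENCODE M21 (GRCm38), promoters from RefSeq (GRCm38.p6).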

Additional observations from a re-analysis of the deposited data

How the results depend on the processing

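Under 7 alternative settings and with each library left out in turn, 0 of the 10 genes and 0 of the 80 other pathway genes were called by an adjusted p under 0.05 among those each fit tested; Ern1 and Derl3 were not tested with the filter of 5 CPM or with limma, nor Herpud1 with that filter. With all libraries and a threshold of 0.1 edgeR also called 0, while Dnajb9 lay under 0.1 in the block fit and, at 0.067, without siControl replicate 2. Over all genes, against 0 higher and 0 lower, 99 and 7 were called with no filter, 46 and 2 with DESeq2, 71 and 9 with the replicate number as a block, and 5 to 130 and 1 to 18 with a library left out. The labels do not say what the replicate number shares, so the block may not pair the libraries; the differences of replicate 2 minus replicate 1 in the 2 groups correlated at 0.317 across 13585 genes. In the block fit Dnajb9 had a log2 fold change of 0.78 and an adjusted p = 0.053, Xbp1 -0.74 and 0.37, and Herpud1 -1.14 and 0.51 with edgeR. Pwp1 was not called with all libraries (edgeR adjusted p = 0.22) or with the stricter filter, DESeq2 size factors or limma, but was called with no filter (5.04e-16), DESeq2 (2.94e-12), the block (0.000208) and any library left out (3.87e-05 to 0.00847). The median log2 fold change of those of the 10 genes that each fit tested lay between -0.30 and -0.15 under the settings. The limma fits, without Ern1, and the filter of 5 CPM, without Ern1 and Herpud1, gave these ends. Settings that tested all 10 gave -0.20 to -0.18. With a library left out the median lay between -0.38 and 0.09, positive without siControl replicate 1. Of the 10, 1 had siPwp1 libraries above and 2 below siControl. The filter of 5 CPM leaves out Herpud1 and so left 1 below. With a library left out 1 to 4 were above and 2 to 6 below. Leaving out a library can only add genes whose groups do not overlap, and the share over all genes was not computed there. With a library left out, signs turned in some fits. Log2 fold changes ranged from -0.094 (without siControl replicate 1) to 0.49 for Atf6, turning also without siPwp1 replicate 2, and from -0.034 (without siPwp1 replicate 2) to 1.60 for Dnajb9. Without siControl replicate 1 they reached the upper end of -0.71 to 0.068 for Hspa5, which was positive without siPwp1 replicate 2 too, -1.11 to 0.11 for Hsp90b1, -1.05 to 0.30 for Calr, -0.16 to 0.026 for Pdia4, -0.59 to 0.014 for Txndc12, -0.61 to 0.16 for Txndc5 and -0.86 to 0.17 for March6. Without a turn of sign, a left-out library moved the value by over 1.5 times for Ern1 (0.0063 to 2.27), Sdf2l1 (0.046 to 0.16), Ddit3 (0.80 to 1.95), Mbtps2 (-0.83 to -0.18), Mbtps1 (0.15 to 0.34), Creb3 (0.022 to 0.34), Hyou1 (-1.57 to -0.54), Cnpy2 (-1.19 to -0.16), Sil1 (0.26 to 0.84), Canx (-0.42 to -0.13), Tmx3 (-0.56 to -0.19), Ero1l (0.0034 to 0.69), Derl3 (0.58 to 2.696), Erlec1 (-0.72 to -0.21), Herpud2 (-0.54 to -0.24), Sec61g (-0.58 to -0.098) and Srprb (0.19 to 0.48). The counts of list genes apart in TPM were added after seeing the data. The cause of these moves was not tested. Ern1 had at most 120 reads in a library, and 2 libraries per group limit all these tests.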
